A study of Mus musculus with 6 samples.

Results

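The genes described here encode the dual-specificity phosphatases (symbols beginning Dusp) and the protein tyrosine phosphatases, both non-receptor (Ptpn) and receptor-type (Ptpr), of the mouse. They were chosen by symbol, with earlier results of these data known. Every protein-coding gene was taken whose symbol is Dusp or Ptpn followed by a number, or Ptpr followed by a letter. The annotation used holds 59 such genes, and 58 of the 53700 gene rows of the count tables belong to them. Ptprg was not analysed here. The samples were germinal vesicle (GV) oocytes of mice on a C57BL/6N background, which are fully formed oocytes still arrested in the first meiotic prophase. Zar1 knockout oocytes (3 libraries, titled Zar -/-) were compared with wild-type oocytes (3 libraries, titled Zar +/+), and the comparison asks which mRNA levels differ in oocytes that lack Zar1, an oocyte RNA-binding protein. Each library was made from polyA RNA of 10 oocytes. The labels call the libraries biological replicates but do not say whether each pool came from its own animal, so a p-value reflects how much these pools vary, which may be technical. Neither the age of the animals nor the deleted part of Zar1 is stated in the labels.

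The active enzymes of these families use a cysteine in a short active-site loop to take phosphate off a substrate. The tyrosine phosphatases remove it from tyrosine and so oppose tyrosine kinases, although some of them, such as SHP2 (Ptpn11), carry growth factor signals forward. The dual-specificity phosphatases act on tyrosine and on serine or threonine, and their best known branch, the MAP kinase phosphatases (MKPs), switches off ERK, JNK and p38 kinases by removing both phosphates of the activation loop. In oocytes the ERK route is driven by the kinase MOS, whose mRNA is stored in the GV oocyte and translated during maturation, and DUSP7 is known in the mouse oocyte for a part in the resumption of meiosis.

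The active-site signature is a feature that most members share across the different classes, and it can be read in their coding sequences. A match of these codons alone does not show that an enzyme is active. A histidine and a cysteine codon followed, with 5 codons between, by an arginine codon was found in 1 principal coding transcript per gene (GENCODE release M21, GRCm38) of every member except Dusp27 and Dusp28. A second match was present in 9 receptor-type genes (Ptpra, Ptprd, Ptpre, Ptprf, Ptprk, Ptprm, Ptprs, Ptprt and Ptpru), which are known for a pair of phosphatase domains. Ptpn9 and Ptpn13 also held 2 matches, with the cysteine at codons 67 and 515 in Ptpn9 and 1634 and 2375 in Ptpn13. Whether both matches in these genes are active sites was not tested. The 24 coding bases of 6 genes from different classes whose levels differed between the genotypes are printed 5′ to 3′, with the catalytic cysteine codon and the arginine codon in capitals.
Dusp5: cacTGCgaagctggggtttccCGG
Dusp8: cacTGTctggctggcatctctCGC
Dusp6: catTGCttggcaggtatcagcCGC
Dusp14: cacTGTgcggcaggcgtgagcCGC
Ptpn3: cacTGCagtgctggaataggtCGG
Ptprr: cacTGCagtgcggggattgggAGA

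The library labels held. Zar1 had 69, 96 and 226 counts in the knockout libraries, against 15245, 13612 and 12810 counts in the wild-type libraries (log2 fold change -6.75 ± 0.36 SE, adjusted p = 1.15e-05). Gene counts summed to between 35066851 and 37946223 in the knockout libraries and to between 32126555 and 39148833 in the wild-type libraries. Counts as deposited by the authors were scaled to library size with TMM factors and are given as CPM, so every level is relative to the other mRNAs of its library. Levels in pooled oocytes do not tell apart fewer oocytes that hold an mRNA from less of it in each oocyte. The first principal component separated the genotypes, and the second, with 13.3% of the variance, ran from a score of -34.9 for knockout replicate 2 to 49.6 for knockout replicate 3. All 15 oocyte markers were measured, at a summed level of 26383 to 28403 CPM in knockout and 23426 to 24946 CPM in wild type, and 9 of them were called higher and 1 lower (median log2 fold change 0.37). Markers of other cells summed to far less than the oocyte markers. The 18 granulosa and cumulus markers summed to 133 to 139 CPM in knockout and 110 to 120.3 CPM in wild type. Most of this was Nr5a2 (77.9 ± 5.50 CPM in knockout, 51.8 ± 3.17 CPM in wild type, called higher) and Cyp19a1 (42.9 ± 7.72 and 47.8 ± 5.72 CPM, not called). In all 2 of 12 tested were higher and 1 lower, and Ptx3 and Tnfaip6 had no more than 3 counts in any library. The 9 theca and stroma markers summed to 0.601 to 1.37 CPM in knockout and 1.13 to 2.24 CPM in wild type, and the 9 endothelial markers to 57.6 to 64.3 CPM in knockout and 64.0 to 76.1 CPM in wild type. The 10 leukocyte markers summed to 140.4 to 209 CPM in knockout and 55.6 to 76.4 CPM in wild type, nearly all of it Lcp1. Laptm5 was also detected (3.17 ± 0.116 CPM in knockout, 4.45 ± 0.806 CPM in wild type, not called). Cd74, Adgre1, Itgam, Cd3e and Tyrobp had no more than 3 counts in any library. The part of other cells in the results that follow was not tested.

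The phosphatase mRNAs split evenly. Of the 58 genes, 46 passed the filter on low counts and were tested, and 12 were higher, 12 were lower and 22 did not pass the threshold in knockout oocytes, so that 24 of 46 (52.2%) were called. Called means a Benjamini-Hochberg adjusted p under 0.05 in edgeR's quasi-likelihood test over all 16473 tested genes, of which 33.4% were called in either direction, 14.9% higher and 18.5% lower, and 37.3% of protein-coding genes were called. The share of members called thus lay above the share of all genes and of protein-coding genes. The median log2 fold change of the 46 genes was -0.07, beside 0.01 over all genes tested, and the median of its absolute value was 0.54, beside 0.40. The 3 knockout and 3 wild-type values did not overlap in 29 of the 46 genes, against 47.8% of all genes tested.

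The branches differed in how many members were called. All 9 tested MKPs were called, 6 higher and 3 lower, with a median log2 fold change of 0.37. Of the 7 atypical dual-specificity phosphatases tested, which lack the MAP kinase-binding domain, 1 was higher and 3 were lower (median -0.35). Of the 15 non-receptor tyrosine phosphatases tested, 2 were higher, 2 lower and 11 not called (median 0.05). Of the 15 receptor-type genes tested, 3 were higher, 4 lower and 8 not called (median -0.22). No difference between the branches was tested.

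**Figure D1:**
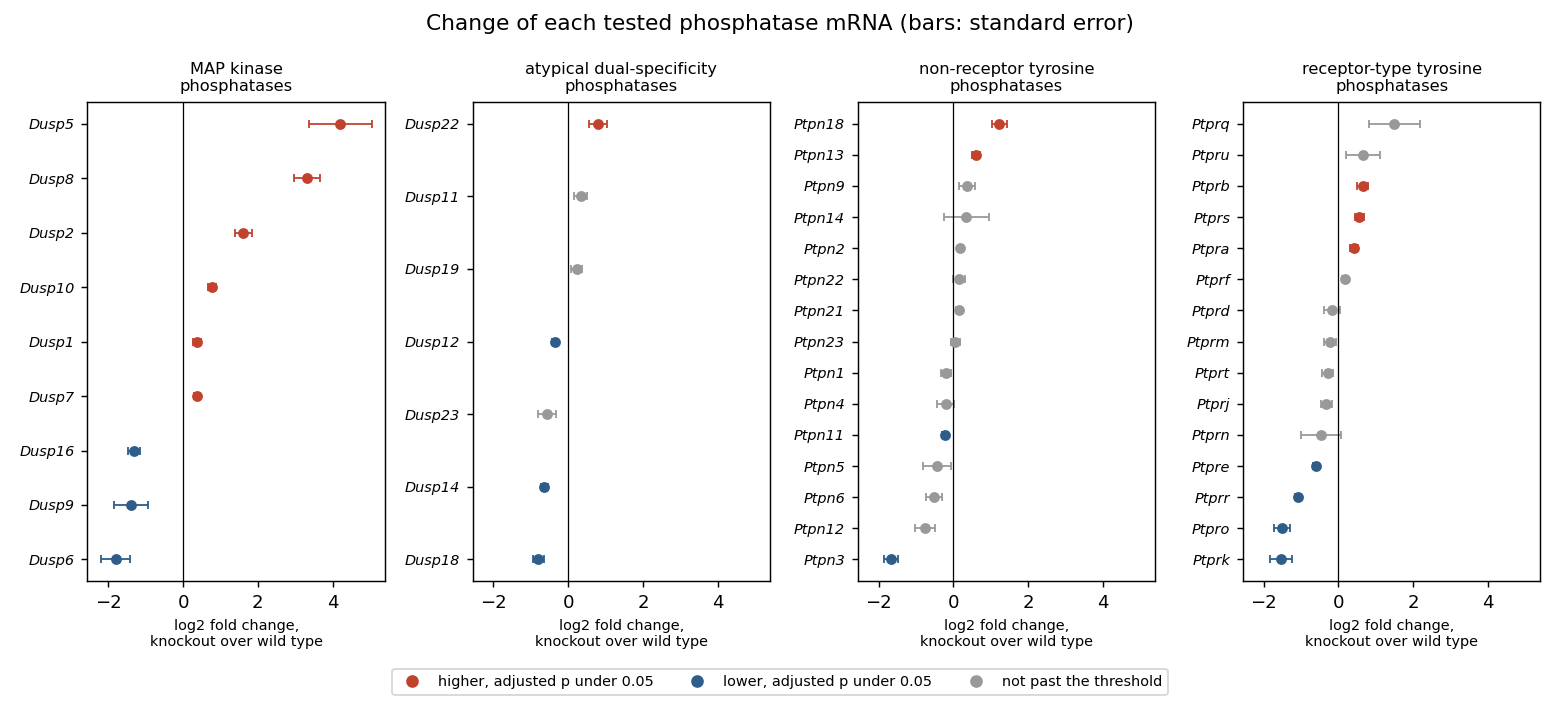
Log2 fold change of each of the 46 tested genes, knockout over wild type, in 4 panels by branch (points, edgeR estimates; bars, standard error; colours, higher, lower or not past an adjusted p of 0.05). The MKPs run from 4.20 for Dusp5 to -1.80 for Dusp6 with no grey point among them, whereas 11 of 15 non-receptor genes are grey.

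The nuclear, inducible MKPs were all higher in knockout oocytes where they could be tested. Dusp1 encodes MKP-1, which acts on p38 and JNK and is an immediate-early gene in many cells. It had 179, 160.2 and 196 CPM in knockout libraries 1, 2 and 3, against 125, 155 and 134 CPM in wild-type libraries 1, 2 and 3. The groups did not overlap, but knockout replicate 2 lay only a little above wild-type replicate 2. The log2 fold change was 0.37 ± 0.10 (adjusted p = 0.0250), and the call was lost on leaving out either of wild-type replicates 1 and 3 or knockout replicates 1 and 3 (adjusted p = 0.104, 0.0960, 0.0560 and 0.0539). It was also lost with offsets for transcript GC content and length (log2 fold change 0.28, adjusted p = 0.0705).

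Dusp2, or PAC-1, was first known from activated T cells and acts on ERK and p38. Its level was 13.3, 9.10 and 12.4 CPM in knockout and 3.43, 3.15 and 4.81 CPM in wild type. The knockout values all lay well above the wild-type values, a 3.05-fold difference (log2 1.61 ± 0.23, adjusted p = 0.000901). The call and direction held under all 18 alternative settings, with log2 fold changes between 1.32 and 1.81.

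Dusp5 is a nuclear phosphatase specific for ERK and itself a transcriptional target of ERK signalling. It had 29, 38 and 159 counts in the knockout libraries, against 8, 1 and 3 counts in the wild-type libraries, that is 0.830, 1.02 and 4.35 CPM against 0.199, 0.0284 and 0.0924 CPM. All knockout libraries lay above all wild-type libraries, and knockout replicate 3 stood at 4.70 times the mean of the other knockout libraries. Its log2 fold change of 4.20 ± 0.84 (adjusted p = 0.00535) was the largest among the tested members, and it was 3.04 without knockout replicate 3 (adjusted p = 0.0103) and 5.03 without wild-type replicate 1 (adjusted p = 0.0143). Exons of a gene on the opposite strand overlap 22.1% of the exon length of Dusp5, and whether the counting used strand is not stated. The counts of Dusp5 may therefore lack reads of the shared stretch or hold reads of that gene. The remaining nuclear MKP, Dusp4, had 2, 8 and 2 counts in knockout and 0, 2 and 10 counts in wild type and was not tested.

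The cytoplasmic MKPs, which prefer ERK, moved in different directions. Dusp7 (MKP-X) had 315, 307 and 353 CPM in knockout and 244, 261 and 251 CPM in wild type. It was the MKP with the highest level per exon length, at 96.8 CPM per kb in knockout and 75.1 CPM per kb in wild type, and the highest of all 58 genes in knockout. The groups did not overlap (log2 fold change 0.37 ± 0.08, adjusted p = 0.00652). When each library's trends over transcript GC content and length were entered as offsets, the log2 fold change was 0.16 and the call was lost (adjusted p = 0.118).

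Dusp6 (MKP-3), a feedback inhibitor of ERK induced by growth factor signals, was scarce and lower in knockout. It had 10, 9 and 15 counts in the knockout libraries and 52, 37 and 31 counts in the wild-type libraries. The groups did not overlap, and the wild-type level was 3.49 times the knockout level (log2 fold change -1.80 ± 0.39, adjusted p = 0.00783). Dusp9 (MKP-4), an X-linked phosphatase known from the placenta, had 1.26, 0.376 and 0.821 CPM in knockout and 2.78, 2.01 and 1.63 CPM in wild type. Its knockout libraries differed among themselves by more than 3-fold yet all lay below the wild-type libraries. Its call (log2 fold change -1.39 ± 0.45, adjusted p = 0.0403) held in only 1 of the 6 fits that left out a library, the fit without knockout replicate 1.

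The MKPs that prefer JNK and p38 also split. Dusp8 had 148, 112 and 157 counts in knockout, against 13, 11 and 17 counts in wild type. That is 4.24, 3.01 and 4.30 CPM against 0.323, 0.312 and 0.524 CPM, with the groups far apart and a 9.94-fold difference (log2 3.31 ± 0.34, adjusted p = 0.000173). The log2 fold change stayed between 3.09 and 3.58 under all 18 alternative settings. Dusp10 (MKP-5) had 48.5, 43.3 and 49.3 CPM in knockout and 27.3, 29.0 and 26.1 CPM in wild type. It differed by 1.71-fold with little spread inside either group (log2 0.77 ± 0.10, adjusted p = 0.000542). Dusp16 (MKP-7), a cytoplasmic JNK phosphatase, went the other way. It had 6.50, 6.79 and 8.29 CPM in knockout and 18.7, 16.1 and 18.6 CPM in wild type, with no overlap between the groups (log2 fold change -1.31 ± 0.15, adjusted p = 0.000351).

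**Figure D2:**
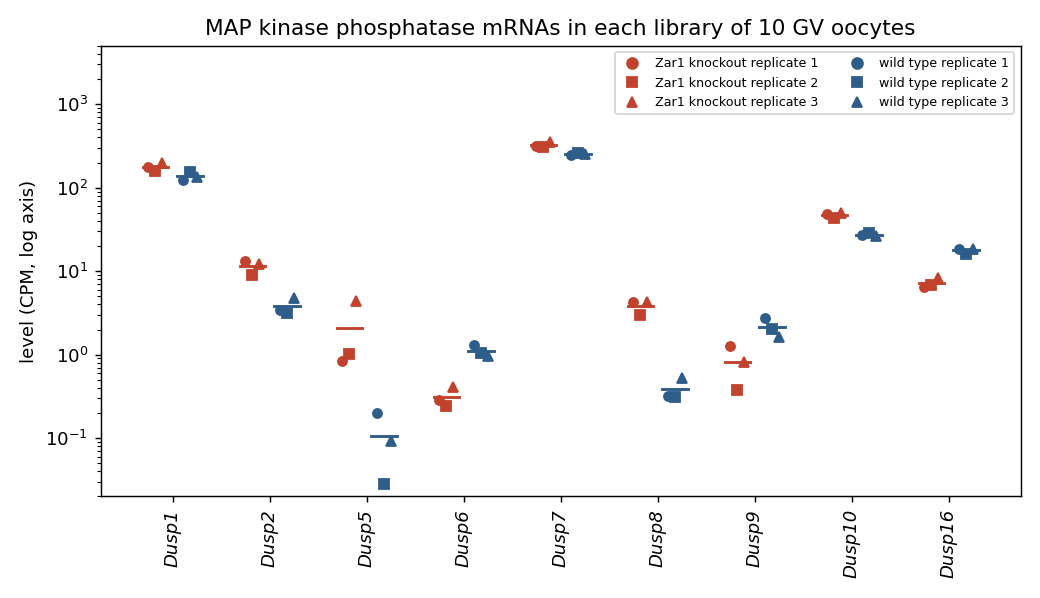
Level of the 9 tested MKP mRNAs in each library of 10 GV oocytes (CPM, log axis; red, Zar1 knockout; blue, wild type; symbols, replicates 1 to 3; lines, group means). Dusp5 and Dusp8 stand above wild type by the widest gaps, Dusp6, Dusp9 and Dusp16 lie below it, and Dusp5 in knockout replicate 3 (4.35 CPM) is apart from the other knockout libraries.

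Summed over the branch, MKP mRNA came to 576 ± 49.4 CPM in knockout and 443 ± 23.0 CPM in wild type (SD, n = 3 each). Most of that sum is Dusp7 and Dusp1, and the 5 MKPs with the highest levels made up 98.8% of it per exon length in knockout and 99.0% in wild type. The strongest fold changes, those of Dusp5 and Dusp8, were therefore in genes that contribute little to the branch total.

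The promoters of the MKPs with the largest rises, and of Dusp1, were read because these genes are known as inducible. RefSeq promoters (GRCm38.p6, 250 bases before to 50 after the start) were matched for 47 of the 58 members by symbol. The 3 printed were chosen after the values had been seen. Capitals mark the full cAMP response element TGACGTCA, the E-box CACGTG and, in Dusp5, a pair of adjacent serum response elements (CArG boxes).
Dusp1, chr17:26508423-26508722, minus strand: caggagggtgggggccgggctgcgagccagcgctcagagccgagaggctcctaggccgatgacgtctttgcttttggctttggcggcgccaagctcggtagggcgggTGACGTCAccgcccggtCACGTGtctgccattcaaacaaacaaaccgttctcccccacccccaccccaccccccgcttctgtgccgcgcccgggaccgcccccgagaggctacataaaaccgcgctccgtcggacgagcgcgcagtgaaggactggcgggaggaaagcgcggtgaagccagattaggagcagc
Dusp5, chr19:53528895-53529194, plus strand: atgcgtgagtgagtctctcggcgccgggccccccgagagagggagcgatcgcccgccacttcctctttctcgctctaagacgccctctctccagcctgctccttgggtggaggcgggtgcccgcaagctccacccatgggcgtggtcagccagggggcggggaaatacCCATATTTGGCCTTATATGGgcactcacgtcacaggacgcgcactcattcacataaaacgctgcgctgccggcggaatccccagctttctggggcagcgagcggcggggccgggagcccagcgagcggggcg
Dusp8, chr7:142095235-142095534, minus strand: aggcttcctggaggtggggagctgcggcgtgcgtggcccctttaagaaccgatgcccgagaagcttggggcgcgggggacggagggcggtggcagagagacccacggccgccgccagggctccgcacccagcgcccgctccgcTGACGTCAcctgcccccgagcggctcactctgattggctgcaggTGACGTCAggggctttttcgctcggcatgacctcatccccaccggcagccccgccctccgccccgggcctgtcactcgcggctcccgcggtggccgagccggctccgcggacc

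The cAMP response element was present in 5 of the 47 member promoters (Dusp1, Dusp8, Ptpn11, Ptprs and Ptpru), that is in 10.6%, beside 1.79% of all 32851 promoters and 3.12% of the 11045 promoters of tested genes. Dusp8 held 2 copies, and at least 2 copies occurred in 13 of all promoters. The serum response element was present in Dusp5 alone among the members, with 2 copies, and 6 of all promoters had at least 2. Both strands were searched, and overlaps were allowed. An E-box was present in Dusp1, Dusp2 and Ptprs (6.38% of the members, 7.15% of all promoters), the AP-1 site TGANTCA in 2 members (4.26% of them, 7.81% of all promoters), the TATA box TATAAA in 2 (4.26%, 13.6% of all promoters), the NOBOX element TAATTG in 4 (8.51%, 8% of all promoters) and the GC box GGGCGG in 30 (63.8%, 35.7% of all promoters). Among the promoters of tested genes the E-box was in 9.72%, the AP-1 site in 5.315% and the TATA box in 7.96%. The NOBOX element was in 5.54% of them and the GC box in 59.1%. These matches describe the letters in the window and were not tied to the measured differences by any test.

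Among the atypical dual-specificity phosphatases, the abundant members that were called were lower. Dusp12, which in yeast and human cells takes part in ribosome assembly, had 155, 169 and 139.8 CPM in knockout and 202, 189 and 202 CPM in wild type. The groups were separate (log2 fold change -0.35 ± 0.09, adjusted p = 0.0134), and the call was lost without wild-type replicate 3 (adjusted p = 0.0551). Genes on the opposite strand overlap 49.8% of its exon length, and whether the counting used strand is not stated. Its counts may therefore lack reads of the shared stretches or hold reads of those genes. Dusp14 (MKP-6), which acts on TAB1 in T cells, had 86.9, 87.9 and 76.1 CPM in knockout and 137, 128 and 124 CPM in wild type. All knockout libraries were below all wild-type libraries (log2 fold change -0.63 ± 0.09, adjusted p = 0.000736).

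Dusp18, whose protein is found at mitochondria in other cells, had 51.7, 51.4 and 74.1 CPM in knockout and 101, 111 and 96.0 CPM in wild type. Knockout replicate 3 was the highest of its group and still below wild type (log2 fold change -0.79 ± 0.14, adjusted p = 0.00331). Dusp22 (JKAP), which dephosphorylates the kinase LCK and promotes JNK signalling, was the only atypical member called higher. It had 4.90, 4.88 and 7.61 CPM in knockout and 3.45, 3.55 and 3.02 CPM in wild type. The groups were separate (log2 fold change 0.79 ± 0.24, adjusted p = 0.0304), but the call was lost without any one of the wild-type replicates (adjusted p = 0.0751, 0.0686 and 0.103) or without knockout replicate 3 (adjusted p = 0.0804, log2 fold change 0.55).

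The 3 atypical members tested and not called were Dusp11, an RNA triphosphatase, at 13.6 ± 1.25 CPM in knockout and 10.8 ± 2.38 CPM in wild type, Dusp19, a scaffold of the JNK cascade, at 41.6 ± 6.72 CPM in knockout and 35.6 ± 4.75 CPM in wild type, and Dusp23 at 4.56 ± 1.46 CPM in knockout and 6.79 ± 0.539 CPM in wild type (SD, n = 3 each). Dusp28 was not tested under the filter but had separate groups, with 19, 8 and 36 counts in knockout and 2, 2 and 5 counts in wild type, and it is named after its values were seen. The atypical members summed to 364 ± 13.6 CPM in knockout and 486 ± 12.7 CPM in wild type.

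**Figure D3:**
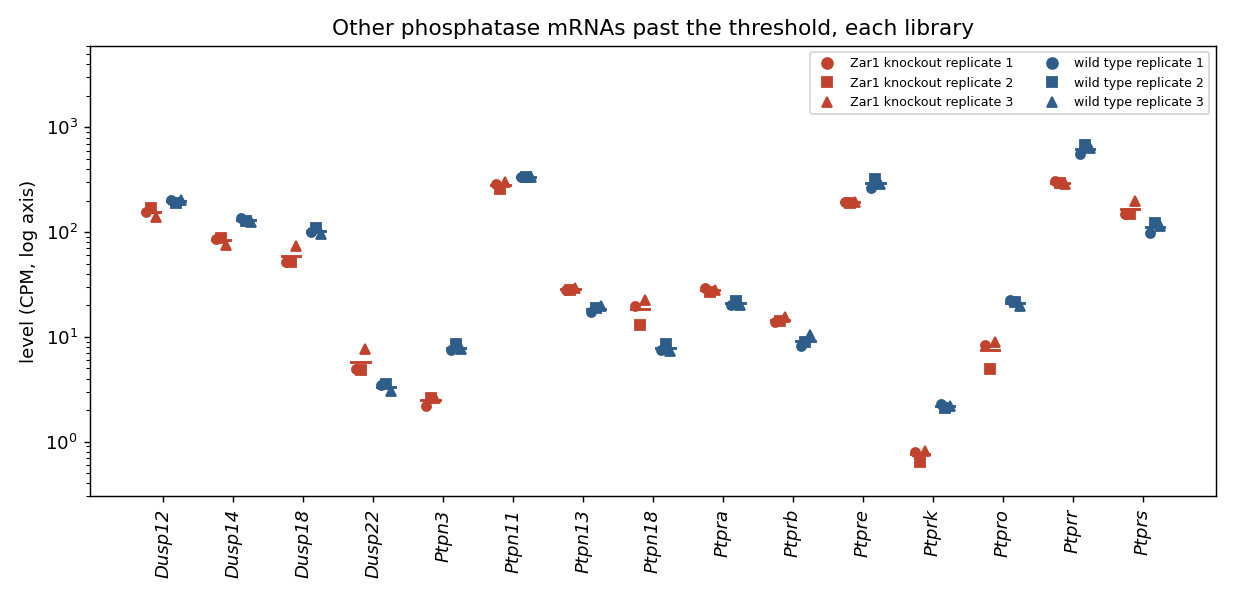
Level of the 15 called genes outside the MKPs in each library (CPM, log axis; red, Zar1 knockout; blue, wild type; symbols, replicates 1 to 3; lines, group means). The knockout and wild-type points are separate in all 15 genes, with Ptprr the highest in wild type (561 to 675 CPM) and Ptprk the lowest (2.10 to 2.31 CPM).

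Of the non-receptor tyrosine phosphatases tested, 4 of 15 (26.7%) were called, below the share of all genes (33.4%), and of the 3 with the highest levels per exon length Ptpn2 and Ptpn21 did not pass the threshold while Ptpn11 did. Ptpn2 encodes TC-PTP, which acts on JAK kinases and STAT proteins. It had 292, 319 and 276 CPM in knockout and 249, 269 and 259 CPM in wild type. Although the groups did not overlap, the log2 fold change of 0.19 ± 0.08 did not pass the threshold (adjusted p = 0.0893). It passed under upper-quartile scaling (0.24, adjusted p = 0.0334), without knockout replicate 3 (0.24, adjusted p = 0.0300) and with GC and length offsets (0.39, adjusted p = 0.00386). Ptpn21 (PTPD1), a FERM-domain phosphatase that binds SRC and FAK, had 563, 584 and 666 CPM in knockout and 519, 578 and 543 CPM in wild type. Its groups overlapped, since knockout replicate 1 lay below wild-type replicate 2 (log2 fold change 0.14 ± 0.08, adjusted p = 0.211).

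Ptpn3 (PTPH1), another FERM-domain phosphatase at the membrane skeleton, was the member of this branch with the largest change. It had 77, 97 and 96 counts in knockout and 300, 302 and 248 counts in wild type. The wild-type level was 3.18 times the knockout level, with tight values in both groups (log2 fold change -1.67 ± 0.19, adjusted p = 0.000291), and the call held under all 18 alternative settings. Ptpn18, a PEST-type phosphatase that acts on HER2, had 19.6, 13.1 and 22.3 CPM in knockout and 7.55, 8.48 and 7.33 CPM in wild type. It was 2.35-fold higher with no overlap (log2 1.23 ± 0.20, adjusted p = 0.00195), again under all 18 settings.

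Ptpn13 (PTP-BL), the very large FERM and PDZ-domain phosphatase, had 28.1, 28.0 and 29.2 CPM in knockout and 17.3, 19.0 and 19.7 CPM in wild type. The groups were separate (log2 fold change 0.61 ± 0.11, adjusted p = 0.00301). Ptpn11, the SH2-domain phosphatase SHP2 that carries receptor signals to RAS and ERK, had 288, 261 and 304 CPM in knockout and 334, 335 and 334 CPM in wild type. The wild-type values were nearly equal and all above knockout, but the difference was small (log2 fold change -0.23 ± 0.07, adjusted p = 0.0400). Its call was lost in 13 of 18 alternative settings, among them DESeq2 (adjusted p = 0.0616) and the fits without any of the wild-type replicates (0.0932, 0.0997 and 0.108) or without knockout replicate 1 or 2 (0.100 and 0.128).

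The other 9 non-receptor genes tested without a call were Ptpn1 (PTP1B), Ptpn4, Ptpn5, Ptpn6 (SHP1), Ptpn9, Ptpn12, Ptpn14, Ptpn22 and Ptpn23. Their log2 fold changes ran from -0.76 for Ptpn12 (adjusted p = 0.0552), which had 6.07, 9.55 and 9.41 CPM in knockout and 14.0, 18.9 and 9.61 CPM in wild type, to 0.36 for Ptpn9. Ptpn12 values were lower in every knockout library, but wild-type replicate 3 was close to the knockout libraries. The branch summed to 1327 ± 57.9 CPM in knockout and 1274 ± 46.7 CPM in wild type.

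Receptor-type tyrosine phosphatases included the most abundant transcript of the whole group in wild type, and it was lower in knockout. Ptprr (PTP-SL) carries a kinase-interaction motif with which it binds and inactivates ERK and p38. It had 308, 293 and 286 CPM in knockout and 561, 675 and 643 CPM in wild type. Each knockout library held less than any wild-type library, and the wild-type level was 2.12 times the knockout level (log2 fold change -1.08 ± 0.08, adjusted p = 4.5e-05, the smallest among the members). The call held under all 18 alternative settings, with log2 fold changes from -1.16 to -0.94. A gene on the opposite strand overlaps 10.96% of its exon length. Ptpn5 and Ptpn7, the relatives with the same kinase-interaction motif, were at 0.670 ± 0.120 CPM in knockout and 0.907 ± 0.253 CPM in wild type (Ptpn5, not called) and at 1 count in each group (Ptpn7).

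Ptpra and Ptpre are close relatives with short extracellular parts, known to activate SRC-family kinases by removing their inhibitory phosphate, and they changed in opposite directions. Ptpra had 29.1, 27.0 and 28.2 CPM in knockout and 20.3, 22.1 and 20.3 CPM in wild type. It was higher with separate groups (log2 fold change 0.43 ± 0.11, adjusted p = 0.0138), and leaving out wild-type replicate 1 or 3 ended the call (adjusted p = 0.0592 and 0.0663). Ptpre had 194, 188 and 196 CPM in knockout and 267, 319 and 292 CPM in wild type. It was lower, and its knockout libraries lay within a narrow range (log2 fold change -0.60 ± 0.08, adjusted p = 0.000685). Per exon length the level of Ptpre was 18.9 CPM per kb in knockout and 28.7 in wild type, and that of Ptpra 2.59 and 1.93, so Ptpre was the more abundant of the pair in both genotypes.

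The adhesion-type receptors with fibronectin or immunoglobulin repeats also split. Ptprs (PTP-sigma), a receptor for proteoglycans, had 151, 148 and 198 CPM in knockout and 98.7, 122 and 115 CPM in wild type. The groups were separate with knockout replicate 3 highest (log2 fold change 0.56 ± 0.13, adjusted p = 0.00967), and with GC and length offsets the log2 fold change was 0.32 and the call was lost (adjusted p = 0.0533). Ptprb (VE-PTP), best known from endothelium, had 13.9, 14.2 and 15.5 CPM in knockout and 8.27, 8.99 and 10.4 CPM in wild type. It was higher in every knockout library (log2 fold change 0.66 ± 0.15, adjusted p = 0.00889). Of the 9 endothelial markers, Cdh5 and Emcn had no more than 3 counts in any library, while 6 others were detected and tested. Pecam1 was higher (30.5 ± 2.15 CPM in knockout, 24.2 ± 0.611 CPM in wild type). Flt1 was lower (13.7 ± 5.25 CPM in knockout, 28.5 ± 4.85 CPM in wild type), and Kdr, Tek, Tie1 and Erg were not called. The part of other cells in the Ptprb difference was not tested.

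Ptprk, which binds its own kind on neighbouring cells, was scarce. It had 28, 24 and 30 counts in knockout and 93, 74 and 71 counts in wild type, so the groups were well apart (log2 fold change -1.54 ± 0.29, adjusted p = 0.00388). Ptpro (GLEPP1), known from kidney podocytes, had 8.45, 4.99 and 8.92 CPM in knockout and 22.4, 21.8 and 19.7 CPM in wild type. The wild-type level was 2.86 times the knockout level, without overlap (log2 fold change -1.51 ± 0.21, adjusted p = 0.000912). Both calls held under all 18 alternative settings.

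The 8 receptor-type genes tested without a call were Ptprd, Ptprf, Ptprj, Ptprm, Ptprn, Ptprq, Ptprt and Ptpru, with log2 fold changes between -0.46 for Ptprn and 1.499 for Ptprq (adjusted p = 0.542 and 0.127). Ptprf (LAR) was the most abundant of them, at 150.1 ± 7.21 CPM in knockout and 134 ± 3.55 CPM in wild type. Ptprq had 30, 41 and 159 counts in knockout and 48, 11 and 23 counts in wild type, and Ptpru had 120, 92 and 318 counts in knockout and 85, 109 and 132 counts in wild type. In both genes knockout replicate 3 stood apart, at 4.44 and 2.95 times the mean of the other knockout libraries. The branch summed to 925 ± 31.7 CPM in knockout and 1298 ± 102 CPM in wild type, and the differences of Ptprr and Ptpre together were larger than the difference between these sums.

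Knockout replicate 3 was the highest knockout library in 26 of the 46 tested genes, and replicates 1 and 2 in 10 each. The share over all genes tested is not given for this count, so it is not read as particular to the members. Knockout replicate 3 exceeded 2 times the mean of the other knockout libraries in 3 genes (Dusp5, Ptprq and Ptpru), that is in 6.52% of the members, beside 4.49% of all genes tested. The median coefficient of variation over the members was 14.5% in knockout and 9.07% in wild type. Without knockout replicate 3, 11 members were called higher and 11 lower, beside 2509 higher and 3125 lower of all 16972 genes tested in that fit.

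A further group was near silent in these oocytes. The 8 genes Dusp3, Dusp15, Dusp21, Dusp26, Dusp27, Ptpn7, Ptpn20 and Ptprc had no more than 3 counts in any library, and Dusp3 and Dusp26 were at 0 throughout, where 3 counts would be 0.0804 to 0.0858 CPM in the knockout libraries and 0.0744 to 0.0924 CPM in the wild-type libraries. Ptprc is CD45, the defining receptor phosphatase of leukocytes, and it had 0 counts over the knockout libraries and 3 over the wild-type libraries. The 4 others not tested were Dusp4, Dusp28, Dusp13 (4, 0 and 1 counts in knockout, 8, 3 and 2 counts in wild type) and Ptprh (3, 10 and 10 counts in knockout, 1, 1 and 3 counts in wild type).

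Levels per exon length put a handful of genes far above the rest. In wild type the order was Ptprr at 106 CPM per kb, Ptpn2 at 82.9, Dusp7 at 75.1, Dusp12 at 71.9 and Ptpn21 at 69.2, and among Dusp7, Dusp12 and Ptpn21 each neighbour differed from the next by less than the sum of their SDs. In knockout it was Dusp7 at 96.8 CPM per kb, Ptpn2 at 94.5, Ptpn21 at 76.5, Dusp12 at 56.5 and Dusp1 at 53.8, with Ptprr in place 6 at 49.9. Dusp7 and Ptpn2 differed by less than their SD in knockout. The 5 highest genes made up 58.3% of the summed level per length in knockout and 57.6% in wild type. Lengths are merged exons of the annotation, not the isoforms that oocytes use.

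**Figure D4:**
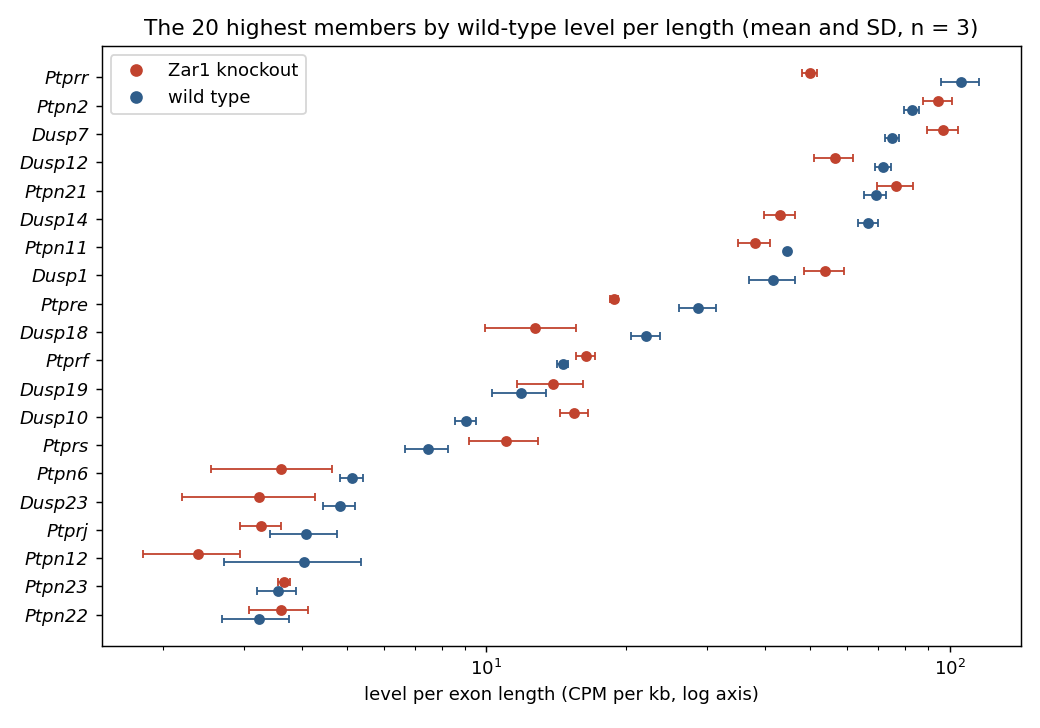
Level per exon length of the 20 genes highest in wild type (CPM per kb, log axis; red, Zar1 knockout; blue, wild type; points, means; bars, SD, n = 3). Ptprr is first in wild type at 106 CPM per kb and sixth in knockout at 49.9, while Dusp7 and Ptpn2 lie to the right of their wild-type points.

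Stored oocyte mRNAs often carry a cytoplasmic polyadenylation element (CPE, TTTTAT or TTTTAAT) close to the polyadenylation signal, and levels in polyA RNA may depend on tail length, which was not measured here. A CPE that starts within 100 bases before AATAAA or ATTAAA in the last 50 bases of the annotated 3' UTR was found in 8 of the 46 tested members (17.4%), beside 15.9% of 12727 tested genes with a 3' UTR. It was found in 2 of 12 members called higher (Dusp1 and Dusp22) and in 2 of 12 called lower (Dusp14 and Ptprk), so equally in both directions. The 30 bases around the element are printed for these 4 genes, from GENCODE release M21, 5′ to 3′ as DNA letters with the element in capitals.
Dusp1: gggatgactttTTTTATacaacagaataaa
Dusp22: cttggtgtgtgTTTTATctactggtgttat
Dusp14: attagcgttatTTTTAATaaacttgcttaa
Ptprk: tgaaataaagtTTTTATaattgtaacattt

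Counted between the first bases of the element and the signal, the distance was 13 bases in Dusp1, 58 in Dusp22, 68 in Ptprk and 4 in Dusp14, where the element overlaps the signal. Anywhere in the 3' UTR, a CPE was present in 8 of 12 members called higher and 11 of 12 called lower, beside 60.9% of all genes tested. The members called lower also had longer 3' UTRs, with a median of 1366 bases, beside 1111 bases for those called higher and 1002 bases over all genes tested. No test was made on these counts.

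Most of the kinases these phosphatases act on did not pass the threshold. Of 35 kinases of the MAP kinase cascades 34 were tested, and 5 were higher, 5 lower and 24 not called, so that 29.4% were called, beside 33.4% of all genes and 37.3% of protein-coding genes (median log2 fold change 0.08). Rps6ka1 (RSK1), a kinase activated by ERK, rose (42.8 ± 3.64 CPM in knockout and 22.0 ± 1.61 CPM in wild type, log2 fold change 0.96 ± 0.11, adjusted p = 0.000316), as did Map3k4 and Mapk12. Mapk3, which encodes ERK1, rose to 192 ± 8.95 CPM in knockout, against 137 ± 5.91 CPM in wild type (adjusted p = 0.00128). Araf, a RAF kinase, fell (log2 fold change -0.82 ± 0.18, adjusted p = 0.00797). Mos had 1763 ± 121 CPM in knockout and 1974 ± 148 CPM in wild type (log2 fold change -0.16 ± 0.08, adjusted p = 0.144).

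Genes known as targets or feedback inhibitors of ERK signalling were called in both directions. Of only 13 tested, 4 were higher, 3 lower and 6 not called (median 0.15). The share called was 53.8%, beside 33.4% of all genes and 37.3% of protein-coding genes. The feedback inhibitors Spry1 and Spry4 and the transcription factor Etv5 rose. Spry1 had 90.9 ± 3.38 CPM in knockout and 46.9 ± 4.30 CPM in wild type (log2 fold change 0.96 ± 0.09, adjusted p = 0.000132), and Etv5 had 19.0 ± 4.61 CPM in knockout and 4.59 ± 0.619 CPM in wild type (2.05 ± 0.21, adjusted p = 0.000197). Spry4 was the most abundant of them, at 844 ± 27.2 CPM in knockout and 637 ± 10.8 CPM in wild type (0.41 ± 0.06, adjusted p = 0.00119). Spred2, also an inhibitor of the route, fell (12.7 ± 2.28 CPM in knockout, 29.1 ± 2.02 CPM in wild type, adjusted p = 0.000489), and so did the immediate-early gene Fosb (1.21 ± 0.196 CPM in knockout, 3.19 ± 0.630 CPM in wild type, adjusted p = 0.00555).

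Of 39 other genes of the tyrosine phosphatase superfamily, such as the CDC25, slingshot, myotubularin and EYA families, 36 were tested, and 6 were higher, 8 lower and 22 not called (median 0.05). The share called, 38.9%, was near that of protein-coding genes. Mtmr14, a lipid phosphatase, had 1265 ± 49.4 CPM in knockout and 866 ± 26.6 CPM in wild type (log2 fold change 0.55 ± 0.06, adjusted p = 0.000317). Ssh1, Sbf1 and Sbf2 were also higher, and Mtmr12 was lower. The count of 14 called dropped to 6 without wild-type replicate 2 and to 8 without wild-type replicate 3. Of 34 tyrosine kinases and adaptors of the growth factor and SRC routes 28 were tested, and 8 were higher, 4 lower and 16 not called (median 0.13). Of these 42.9% were called, beside 33.4% of all genes and 37.3% of protein-coding genes. Lyn, a SRC-family kinase, had 105 ± 8.93 CPM in knockout and 54.5 ± 8.28 CPM in wild type (log2 fold change 0.94 ± 0.12, adjusted p = 0.000593), Abl1 and Grb2 were higher, and Jak1 and Pdgfra were lower.

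Over all 58 genes the summed level was 3191 ± 133 CPM in knockout and 3501 ± 166 CPM in wild type.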

How the data were processed

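The deposited files hold raw counts per gene, not normalized by the authors, for each library of 10 GV oocytes. The submitters' processing notes name STAR 2.7.8a, HTSeq 0.13.5, cutadapt 2.8, bcl2fastq 2.20.0.422 and the mm39 build. They state neither the annotation release nor whether strand was used, so counts of overlapping, antisense or near-identical genes are uncertain. Reads outside genes (4.84% to 5.70% of those tallied), in more than 1 gene (4.21% to 4.42%) or with more than 1 alignment (13.9% to 15.0%) stayed out of library sizes and tests.

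Groups and replicate numbers came from the labels. Genotype was the single term of a two-sided quasi-likelihood test (R 4.3.3 with edgeR 4.0.16, functions glmQLFit and glmQLFTest) after filterByExpr and TMM scaling. P-values were adjusted by Benjamini-Hochberg over 16473 genes with a threshold of 0.05, and a standard error is the absolute log2 fold change over the root of the F statistic. The common biological coefficient of variation was 0.212. The steps were tested on simulated counts. Symbols, exon lengths and transcript sequences came from GENCODE release M21 (GRCm38), and 52093 of 53700 rows had a symbol. Duplicate libraries were looked for with a chi-square over genes, whose ratio to its degrees of freedom was between 12.8 and 39.9 within a genotype, so none was merged.

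The members and all gene lists were chosen with earlier results of these data known. Values in every library are given for the called members and for the 5 members with the highest wild-type level per exon length, and from each other list up to 5 called genes with the smallest adjusted p are named. Exceptions, named after their values were seen, are Dusp28, Mos and members set out to account for the whole group. As alternatives, the scaling was changed (RLE, upper-quartile, library sizes alone), low counts were filtered in 2 other ways, the test was DESeq2 1.42.0 or limma-voom (limma 3.58.1), the replicate number entered as a block, each library was left out, the threshold was an adjusted p of 0.01, a 1.5-fold change was the null, or offsets for transcript GC content and length were used, which covered 99.7% of tested genes.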

Additional observations from a re-analysis of the deposited data

Results flagged for a closer look

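Ptprv carries a receptor phosphatase symbol, but the annotation lists it as a processed transcript and not as protein-coding, so it lies outside the genes compared in the report. It had 7, 8 and 284 counts in knockout replicates 1, 2 and 3, against 5, 2 and 2 counts in wild-type replicates 1, 2 and 3. The 284 counts of knockout replicate 3 stand above every control library and above the other knockout libraries, which lay near the wild-type counts. The gene did not pass the filter on low counts and was not tested.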

How the results depend on the processing

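The 12 members called higher and 12 called lower became 4 and 6 in the test against a 1.5-fold change, where 417 and 1067 of all genes were called. Leaving out each library in turn gave 9 to 13 members higher and 10 to 12 lower, beside 1541 to 2509 higher and 2285 to 3125 lower of all genes. The 17 MAP kinase and feedback genes called became 10 at an adjusted p of 0.01 and 6 against a 1.5-fold change, and lay between 12 and 18 with a library left out. The 14 other superfamily genes became 6 at an adjusted p of 0.01 and 1 against a 1.5-fold change, and lay between 6 and 13 with a library left out. At an adjusted p of 0.01, 1171 of all 16473 genes were called higher and 1861 lower. The same replicate numbers did not deviate together (r = -0.00898, -0.0420 and -0.0252), no knockout library correlated best with the wild-type library of its own number, and with the replicate number as a block 11 members were higher and 11 lower, with 16 MAP kinase and feedback genes and 10 other superfamily genes called. Over all 16473 genes the block gave 2078 higher and 2760 lower. The block ended the calls of Dusp22 (adjusted p = 0.0641) and Ptpn11 (0.0654), and together with GC and length offsets that of Dusp12 (0.0741). None of the 26 members given by library reversed its direction under any alternative that gave it a value, and Dusp5 and Dusp6 had none under a filter on a mean of at least 50 counts. Genes near 0 counts, such as Dusp5 in wild type, are limited by depth.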
